A study of Mus musculus with 12 samples.

Results

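The genes described here encode the cytosolic ribosomal proteins, the protein components of the ribosomes that translate nuclear-encoded messages. They were chosen by symbol alone: RPL or RPS followed by a number and, in some, a closing A, X or L, together with RPLP0, RPLP1, RPLP2 and RPSA. The rule found 82 of the 23636 symbols in the table, 50 for the large subunit and 32 for the small subunit. RPL32L, 1 of the symbols found, is annotated as a processed pseudogene in GENCODE vM21. Messenger RNA was measured in CT26, a mouse colon carcinoma cell line, and is given in TPM, the share of a transcript in its library after correction for length, where all values of a library sum to 1000000. There were 4 groups of 3 libraries, which the labels call biological replicates. One group had no treatment, one received recombinant CX3CL1 at 2 µg/ml, one received IFN-γ at 100 ng/ml, and one received IFN-γ + CX3CL1, and all of the treatments lasted 8 h. CX3CL1 is a chemokine that signals through the receptor CX3CR1, and IFN-γ is a cytokine of activated lymphocytes. All groups are cultures of 1 cell line, so no host cells were sequenced, and TPM give no read depth.

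Each cytosolic ribosome is built from a large subunit, which joins amino acids, and a small subunit, which reads the message. Most of the proteins are present once per ribosome, and those that are not incorporated are generally degraded, so ribosome composition is set after the mRNA as well as by it. Their messages usually begin with a pyrimidine-rich stretch called a terminal oligopyrimidine (TOP) motif, through which mTOR and LARP1 control translation. Some of the proteins are also known for work outside the ribosome: RPL13A for the GAIT complex that silences inflammatory messages after IFN-γ, RPS3 for binding NF-kB, and RPL5 and RPL11 for binding MDM2, the ligase that degrades p53.

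The libraries bore the marks of their treatments. GBP2, an interferon-induced guanylate-binding protein, lay between 5.49 and 15.1 TPM without treatment, between 56.5 and 85.9 TPM with CX3CL1, between 311 and 734 TPM with IFN-γ, and between 479 and 939 TPM with IFN-γ + CX3CL1. Of 7 epithelial markers, KRT18 was present at 18.4 to 53.6 TPM and the other 6 were at most 0.364 TPM, with EPCAM listed at 0 throughout. The mesenchymal marker VIM lay between 1684 and 4831 TPM. Of 6 leukocyte markers, LYZ2 reached 1.86 TPM and the others at most 0.134 TPM, and CD3E was at 0. The 3 endothelial markers reached at most 0.0468 TPM.

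Ribosomal protein genes were among the most abundant messages of these cells. Their mean over the 12 libraries had a median of 1994 TPM among the 78 that were tested, against 23.0 TPM for all 11878 genes tested, and 51 of them stood among the 100 most abundant genes of the table. TPM are corrected for transcript length, but levels of different genes also depend on how reads from copies of a gene were counted. The highest were RPS26 at 7959 TPM, RPL35 at 6776 TPM, RPL32 at 6586 TPM, RPLP1 at 6534 TPM and RPL41 at 5664 TPM. These are a small subunit protein near the messenger exit, 2 large subunit proteins, an acidic protein of the stalk that recruits elongation factors, and the shortest protein of the ribosome. The middle 50% of the tested genes lay between 859 and 3225 TPM, and the large and small subunit genes had like medians of 1744 and 2075 TPM.

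**Figure D1:**
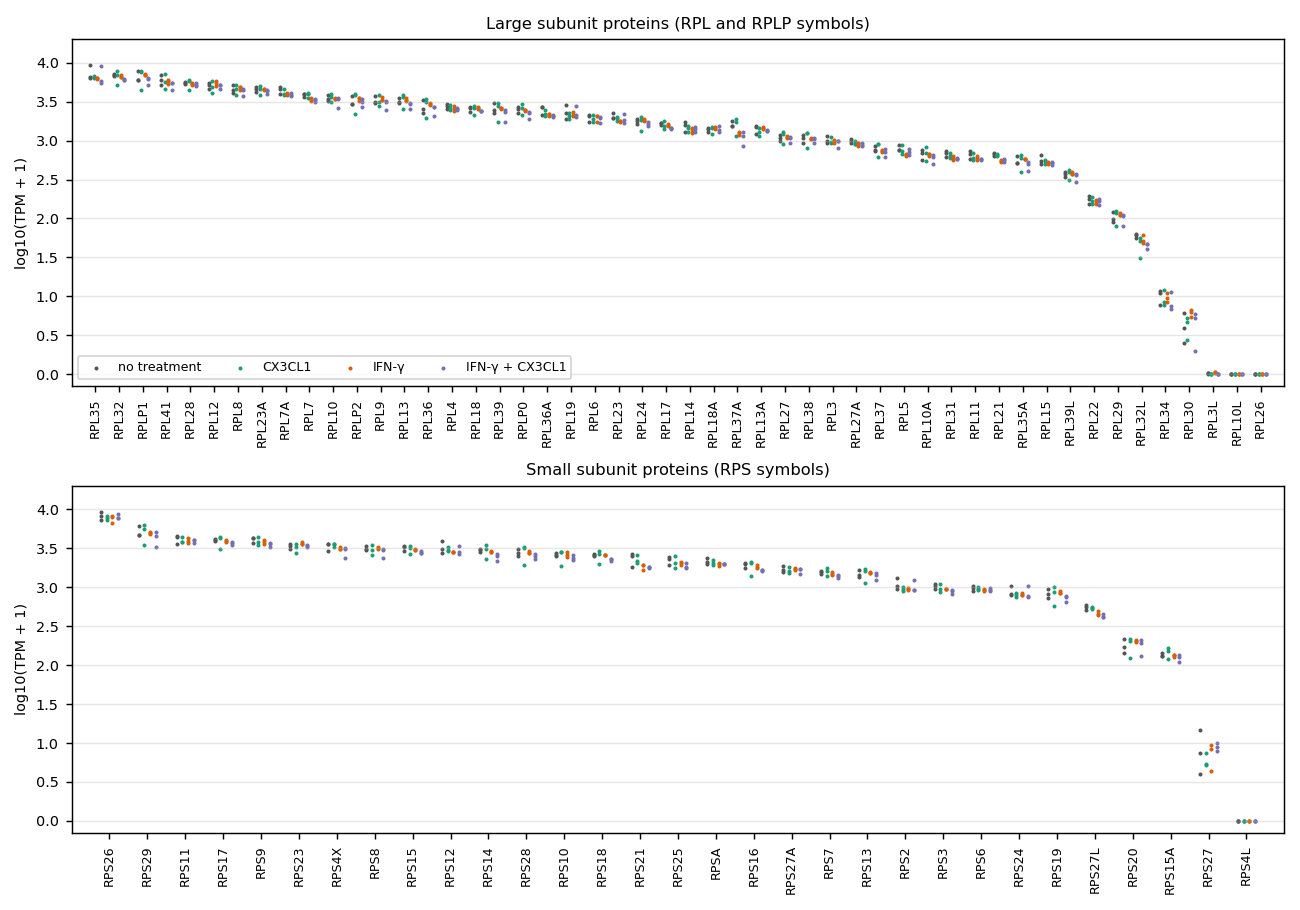
Level of 81 of the 82 cytosolic ribosomal protein genes as log10(TPM + 1) in the 12 libraries, 1 point per library, colored by group and ordered by mean level within the large and the small subunit. The 54 genes above 1000 TPM form a gentle slope above 3 on this scale, the 4 groups lie close together, and a short tail falls to 0.

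A tail of genes fell far below the rest. RPL26, RPL10L and RPS4L were listed at 0 in all 12 libraries, and RPL3L lay between 0 and 0.0575 TPM, so these 4 genes were not tested. RPL3L is a muscle form of RPL3 and RPL10L a testis form of RPL10, and RPL3 and RPL10 themselves were at 982 and 3439 TPM. RPL26 is a core large subunit protein of every cell, and its 0 is a failed estimate rather than a level, so the other genes listed at 0 cannot be read as absent either. Of the genes that were tested, the lowest were RPL30 at 3.73 TPM, RPS27 at 6.80 TPM, RPL34 at 8.41 TPM, RPL32L at 50.5 TPM and RPL29 at 104.9 TPM. RPL30, RPS27, RPL34 and RPL29 are core proteins too, while RPL32L is an annotated pseudogene, a copy of RPL32 inserted elsewhere in the genome. The values of RPL30 in the 3 libraries of each group were 2.88, 5.05 and 1.49 TPM without treatment, 4.27, 1.77 and 3.63 TPM with CX3CL1, 4.41, 5.73 and 5.33 TPM with IFN-γ, and 0.993, 4.27 and 4.99 TPM with IFN-γ + CX3CL1. For RPS27 they were 3.04, 6.45 and 13.8 TPM, then 4.20, 4.40 and 6.49 TPM, then 3.43, 8.49 and 7.47 TPM, and then 6.79, 7.99 and 9.03 TPM, in the same order of groups. The groups overlapped in both genes, and these 2 genes and RPL37A had the largest spreads over the 12 libraries, with SDs of 0.58, 0.54 and 0.34 on the log2 scale against a median of 0.16 for the tested ribosomal protein genes.

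Ribosomal protein genes have many copies elsewhere in the mouse genome, and a read pair wholly within a shared stretch cannot be assigned to 1 of them. Stretches of 50 bases of 1 transcript a gene were therefore looked up in all GENCODE vM21 transcripts of other genes. The study's paired reads were longer than 50 bases and can reach beyond a shared stretch. The shares below are therefore not shares of reads that could not be assigned. They also depend on the transcript chosen for each gene, which was 5179 bases long for RPS15A, with a share of 6.28%. In 79 of the 82 genes at least 1 annotated pseudogene held such a stretch, the median gene had 8 such pseudogenes, and a median of 43.9% of its stretches occurred in another gene. RPS27 (chromosome 3, 90212522 to 90213651, minus strand, GRCm38) was the extreme case, since 98.6% of its stretches recur in RPS27RT, a copy without introns on chromosome 9 (114982366 to 114982739, minus strand) that was also listed at 0 in all 12 libraries. For RPL26 the share was 71.3%, for RPL30 47.8%, and for RPL34 37.9%. A high share did not go with a low level in general: RPLP1 had 60.0% of its stretches in other genes and stood at 6534 TPM. Across the 78 tested genes, Spearman's rho between level and this share was 0.15, a description over genes of the same libraries. The part of such copies in the low values was not tested.

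The coding sequences of RPS27, of its copy and of RPS27L are shown because they mark which of these messages a read can tell apart. RPS27L (chromosome 9, 66946086 to 66949516, plus strand) encodes a second form of the RPS27 protein and is known as a target of p53. Bases in capitals differ from RPS27 at the same position.
RPS27: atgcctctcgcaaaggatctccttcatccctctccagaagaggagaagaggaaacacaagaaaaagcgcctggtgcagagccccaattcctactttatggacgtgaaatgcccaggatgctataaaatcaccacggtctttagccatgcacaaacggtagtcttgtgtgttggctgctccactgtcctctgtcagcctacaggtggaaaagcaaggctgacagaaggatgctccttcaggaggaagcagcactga
RPS27RT: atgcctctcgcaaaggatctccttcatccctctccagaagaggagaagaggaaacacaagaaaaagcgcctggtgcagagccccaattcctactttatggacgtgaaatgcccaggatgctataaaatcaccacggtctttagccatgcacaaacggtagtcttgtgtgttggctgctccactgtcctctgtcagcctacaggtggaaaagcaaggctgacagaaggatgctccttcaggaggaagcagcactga
RPS27L: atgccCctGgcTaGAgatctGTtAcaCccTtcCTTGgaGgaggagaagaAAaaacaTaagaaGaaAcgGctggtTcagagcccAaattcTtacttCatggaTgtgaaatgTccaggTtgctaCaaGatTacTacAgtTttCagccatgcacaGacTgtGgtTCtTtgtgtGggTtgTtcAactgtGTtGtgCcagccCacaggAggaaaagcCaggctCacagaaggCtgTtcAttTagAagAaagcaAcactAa
The copy has no base that differs from RPS27 over the 255 bases, so no read within the coding part could separate them. RPS27L differs at 61 of the 255 bases, and no identical run is longer than 11 bases. The low and scattered values of RPS27 are therefore set apart in what follows, while RPS27L, at 411 to 595 TPM, can be told apart from RPS27, although 22.4% of its stretches recur in other genes, among them 4 pseudogenes.

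The starts of the messages are shown because the TOP motif sits there. RefSeq promoter sequences (GRCm38.p6, 250 bases before and 50 after the start) were found for 61 of the 82 genes. Of these, 52.5% had an unbroken run of at least 6 C or T bases that touched the 5 bases on either side of the start, read on the transcribed strand only, against 23.0% of 26964 other genes with an entry. The letters CTTTCC occurred on either strand of the 300 bases in 52.5% of the ribosomal protein genes and 29.3% of the others, and they can lie inside such a run. The letters CCGGAAG, bound by factors of the ETS family, occurred on either strand in 41.0% and 9.86%. The letters TATAAA occurred in the 50 bases before the start in none of the 61 genes and in 4.18% of the others. Genes with several listed starts were counted once, as holding the letters if any of their entries did. A run of C and T could lie wholly before or after the start, so the share with a run does not count TOP motifs. The stretches below, 1 entry a gene, run from 15 bases before the start to 15 bases after it, for high genes (RPS26, RPL35, RPL41, RPLP2), low genes (RPS27, RPL34) and genes whose treatment differences are described further on (RPS27L, RPL37A, RPS21), with the run of C and T that touches those 5 bases in capitals. The RefSeq start was not always the first base of the GENCODE gene, which can differ from the start of a given transcript. The distance was 493 bases for RPL35, 281 for RPLP2, 241 for RPS26 and 137 for RPL41. It was 30 bases or fewer for the other genes shown.
RPS26 (chr10:128626492-128626521, minus): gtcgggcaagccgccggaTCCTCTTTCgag
RPL35 (chr2:39005117-39005146, minus): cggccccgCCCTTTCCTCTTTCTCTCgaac
RPL41 (chr10:128549154-128549183, minus): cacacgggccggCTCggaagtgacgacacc
RPLP2 (chr7:141447636-141447665, plus): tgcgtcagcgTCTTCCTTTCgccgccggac
RPS27 (chr3:90213634-90213663, minus): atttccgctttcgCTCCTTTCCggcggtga
RPL34 (chr3:130730384-130730413, minus): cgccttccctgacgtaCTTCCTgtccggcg
RPS27L (chr9:66946071-66946100, plus): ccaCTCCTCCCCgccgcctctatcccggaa
RPL37A (chr1:72711245-72711274, plus): ttccgctcgccggTCTaaaaccgcgcatgc
RPS21 (chr2:180257364-180257393, plus): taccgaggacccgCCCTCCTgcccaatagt
The run was 18 bases long in RPL35 but 3 bases long in RPL41, also among the highest genes, and in RPL37A. The low gene RPS27 had a run of 9 bases. RPL34 had one of 6 at the start shown and of 20 at the other of its 2 listed starts. In RPS27L and RPL41 the run shown lay wholly before the start, and in RPS26 and RPL34 wholly after it.

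Taken as a sum, the 82 genes made up 15.3% to 20.2% of all TPM of a library. The shares in the 3 libraries were 16.9%, 19.5% and 19.0% without treatment, 18.3%, 15.3% and 20.2% with CX3CL1, 17.6%, 18.1% and 17.9% with IFN-γ, and 16.2%, 16.8% and 17.1% with IFN-γ + CX3CL1. The means were 18.5% ± 1.39, 17.9% ± 2.44, 17.9% ± 0.237 and 16.7% ± 0.449 (SD, n = 3). The CX3CL1 libraries held both the lowest and the highest share, while all IFN-γ + CX3CL1 libraries lay below all IFN-γ libraries. Because these are shares of bulk RNA, less ribosomal protein message per cell and more of other messages cannot be told apart, nor can a change in the mix of cells. Under median-ratio scaling of the libraries the latter 2 groups overlapped, with sums of 167310, 177896 and 180728 for IFN-γ and 155044, 165459 and 172382 for IFN-γ + CX3CL1. Large and small subunit genes kept their proportion, with a ratio of their summed TPM that had group means between 1.46 and 1.48. The summed TPM of the 78 mitochondrial ribosomal protein genes, which serve the separate ribosomes of mitochondria, were likewise lower with IFN-γ + CX3CL1 (7503 to 7851) than with IFN-γ alone (8071 to 8410.1).

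**Figure D2:**
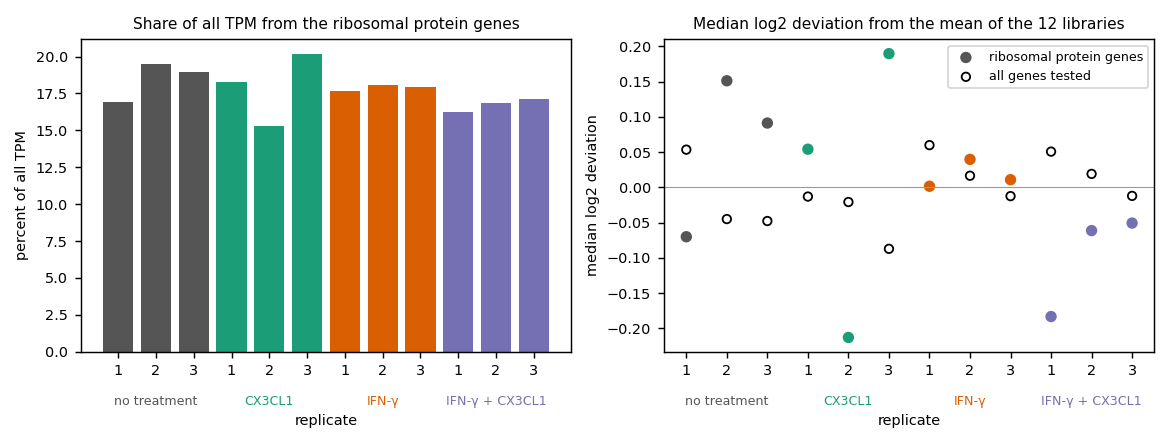
Left, share of all TPM that came from the 82 cytosolic ribosomal protein genes, 1 bar per library, in percent. Right, median over the 78 tested ribosomal protein genes (filled) and over all tested genes (open) of the log2 deviation from the mean of the 12 libraries. CX3CL1 replicates 2 and 3 hold the lowest and the highest value of the ribosomal protein genes in both panels.

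The libraries differed from each other in ways that the groups do not explain. CX3CL1 replicate 2 lay 0.31 lower on the log2 scale than the other CX3CL1 libraries in the median of the tested ribosomal protein genes, and CX3CL1 replicate 3 lay 0.28 higher. A second pattern was shared across groups by untreated replicate 3, CX3CL1 replicate 2 and IFN-γ + CX3CL1 replicate 1. In these libraries the ratio of RPL35 to RPLP1 was 1.57, 1.43 and 1.75, against 0.812 to 1.08 in the other 9. Across the 78 genes, the deviations of these libraries from the mean of all 12 correlated with each other at r = 0.49, 0.68 and 0.47. Across all genes tested, the same pairs gave r = 0.33, -0.61 and -0.32. Treatment differences are part of these deviations, so the values over all genes do not show whether the pattern is particular to ribosomal protein genes. Over the 78 genes, other pairs across groups ran from -0.82 (untreated replicate 2 with IFN-γ + CX3CL1 replicate 1) to 0.77 (IFN-γ replicate 2 with IFN-γ + CX3CL1 replicate 3). RPS20, another small subunit protein, lay at 143.9, 121.9 and 130.8 TPM in these libraries and at 168 TPM or above in the other 9. Replicate order gives no batch, and the labels name none for these libraries. The main counts and medians below were also computed from the other 9, a choice made after seeing the data.

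**Figure D3:**
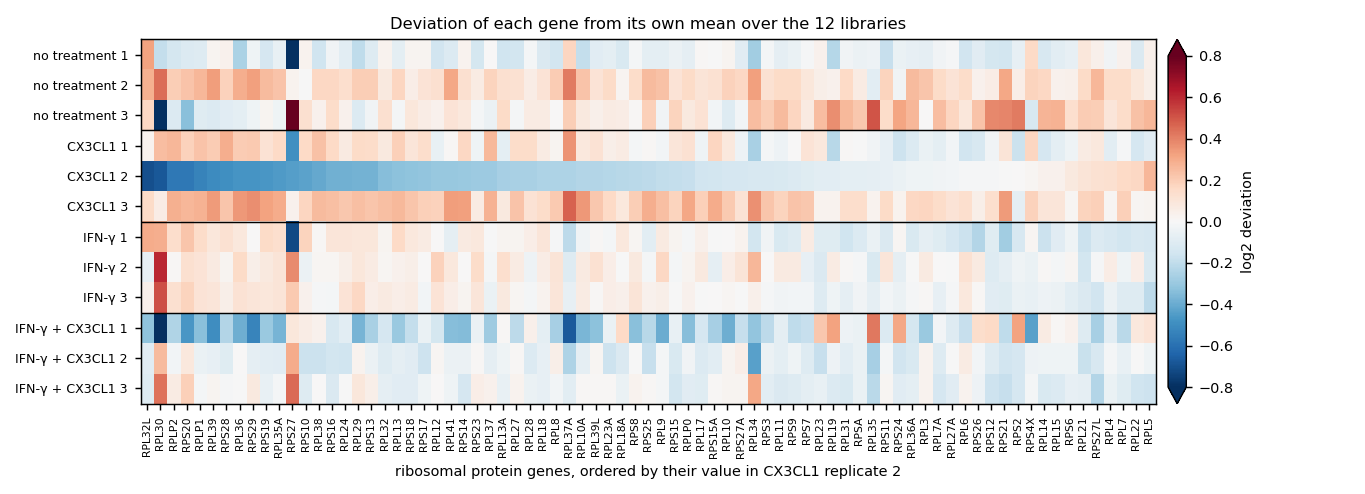
Log2 deviation of 77 of the 78 tested ribosomal protein genes from its own mean over the 12 libraries, 1 row per library and 1 column per gene, with columns ordered by the value in CX3CL1 replicate 2 (colors end at 0.8 in either direction). Untreated replicate 3, CX3CL1 replicate 2 and IFN-γ + CX3CL1 replicate 1 shade from blue to red in the same order, while the IFN-γ libraries are paler apart from RPL30 and RPS27.

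CX3CL1 alone was compared with no treatment to ask what the chemokine does to CT26 cells. No ribosomal protein gene was called at an adjusted p under 0.05 (limma on log2(TPM + 1), Benjamini-Hochberg over all 11878 genes), against 1.78% of all genes called higher and 0.168% called lower. At an unadjusted p under 0.05 there was 1 of 78, against 8.07% of all genes. The median log2 difference was -0.05, with the middle 50% of genes between -0.08 and -0.01, and the median of all genes tested was -0.02. This median changed sign, to 0.07, in the fit of 9 libraries, and to 0.06 without CX3CL1 replicate 2 alone. The largest fall in value was that of RPL32L, the annotated pseudogene. It lay at 62.3, 60.6 and 55.7 TPM without treatment and 50.7, 30.0 and 55.2 TPM with CX3CL1. The groups did not overlap, the log2 difference was -0.43 ± 0.19 (SE), and the adjusted p was 0.544. It was -0.17 without CX3CL1 replicate 2 and -0.21 in the fit of 9 libraries. It was the only 1 of 78 genes whose CX3CL1 libraries all lay below the untreated ones, against 5.73% of all genes, and none had all of them above, against 5.50%. RPS2, a small subunit protein at the messenger entry, had a log2 difference of -0.21 and RPS15A and RPL30 had the largest positive ones, 0.08 and 0.07, all with an adjusted p above 0.9.

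IFN-γ alone gave 1 call. RPL21, a large subunit protein, was measured at 641, 671 and 694 TPM without treatment and at 535, 545 and 557 TPM with IFN-γ, so every treated library lay below every untreated one. It fell by 0.29 ± 0.08 on the log2 scale (SE), with an adjusted p of 0.0455. In the background, 5.91% of all genes were called higher and 1.94% lower, and 5 of the 78 ribosomal protein genes had an unadjusted p under 0.05, which is 6.41%, against 2611 of all 11878 genes. RPS27L was at 508, 595 and 565 TPM without treatment and 459, 491 and 444 TPM with IFN-γ, a log2 difference of -0.26 ± 0.09 with an adjusted p of 0.112. Over all tested genes, same-numbered libraries of these groups deviated together, with r from 0.22 to 0.46. Over the ribosomal protein genes r was 0.81, 0.04 and 0.40 for replicates 1, 2 and 3. Blocking on that number raised the calls to 3, among them RPL21 and RPS27L with adjusted p-values of 0.0154 and 0.0403.

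The call of RPL21 rested on a narrow margin. It held in 8 of 18 alternatives and was lost without any 1 of the 6 libraries compared (adjusted p up to 0.174), under median-ratio scaling (0.0628), under rescaling to genes other than ribosomal protein genes (0.0519), without the intensity trend (0.0524) and in the fit of 9 libraries (0.0602). Its log2 difference lay between -0.34 and -0.27 in all 18. The transcript used for it, of 1856 bases, shares 26.2% of its stretches with other genes, among them 81 pseudogenes. A shorter transcript of the gene could give another share. Further differences with IFN-γ were RPL37A at -0.39, RPS21 at -0.34, RPL30 at 0.66 and RPS20 at 0.25, none of them called in the main fit. RPL37A was called with only the libraries compared and in the fit of 9 libraries. RPS21 was called without untreated replicate 1 and with GC and length centring and the block together. RPL37A, a zinc-binding large subunit protein, went from 1531, 1811 and 1558 TPM to 1174, 1263 and 1295 TPM, and its groups did not overlap. Over the 78 genes, 6 lay entirely below and 2 entirely above the untreated libraries, against 13.7% and 20.6% of all genes. The median log2 difference was -0.05, against 0.03 for all genes, and -0.02 with quantile normalization.

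**Figure D4:**
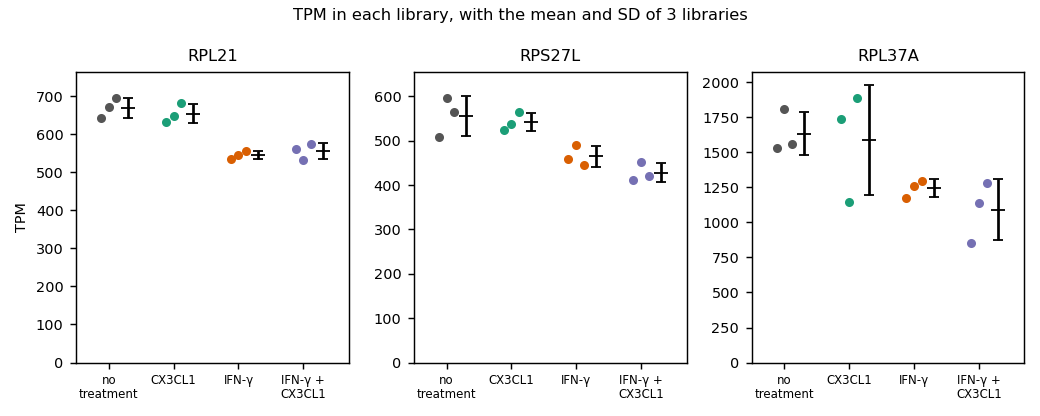
TPM of RPL21, RPS27L and RPL37A in each of the 3 libraries of each group (points) with the mean and SD of the 3 (bars), on axes that start at 0. RPL21 and RPS27L are lower in all libraries with IFN-γ than in all without it, and RPL37A spreads widely with CX3CL1.

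IFN-γ + CX3CL1 against no treatment showed the widest shift of the ribosomal protein genes. Of the 78, 72 had a negative log2 difference (92.3%, against 45.7% of all genes), the median was -0.15, and the median of all genes was 0.02. With quantile normalization 60 were negative and the median was -0.08, and in the fit of 9 libraries 66 were negative and the median was -0.10. The 19 genes whose treated libraries all lay below the untreated ones were 24.4% of the 78, against 12.6% of all genes, and 1 gene lay above, against 18.6%. Only RPS27L was called, against 8.21% of all genes called higher and 3.72% called lower. At an unadjusted p under 0.05 there were 8 of 78, which is 10.3% against 24.6% of all genes. RPS27L was measured at 411, 451 and 421 TPM with both agents, below each of the untreated values given above. It fell by 0.38 ± 0.09 on the log2 scale (95% confidence interval -0.57 to -0.18), with an adjusted p of 0.0151. It was called in 13 of 18 alternatives. The call was lost in the fit of 9 libraries (adjusted p = 0.0764) and without untreated replicate 2 (0.0765), untreated replicate 3 (0.0625), or replicate 1 (0.0501) or 3 (0.0681) of IFN-γ + CX3CL1. In the same comparison the markers KRT18, COL1A1 and VIM were called lower, with log2 differences of -1.02, -1.24 and -0.86, and their part in the result was not tested.

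Next to RPS27L stood RPL21 and RPL37A. RPL21 was at 561, 532 and 575 TPM with both agents, a log2 difference of -0.27 ± 0.08 with an adjusted p of 0.0521. RPL37A was at 852, 1141 and 1281 TPM, a log2 difference of -0.60 ± 0.19 with an adjusted p of 0.0570, and it was called in the fit of 9 libraries, where the difference was -0.46 with an adjusted p of 0.0375. RPS21, a small protein of the small subunit, had values of 1849, 2541 and 2694 TPM without treatment and 1778, 1844 and 1801 TPM with both agents, a log2 difference of -0.37 with an adjusted p of 0.134. RPL32L had a log2 difference of -0.43 with an adjusted p of 0.174. The positive differences of RPS27 (0.22) and RPL30 (0.04) had standard errors of 0.39 and 0.40.

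Adding CX3CL1 to IFN-γ gave many small differences in 1 direction and no call. Of the 78 genes, 64 had a negative log2 difference, against 50.8% of all genes, and the median was -0.11 against 0.00 for all genes. The IFN-γ + CX3CL1 libraries lay entirely below the IFN-γ libraries in 24 genes, 30.8% of the 78 against 7.74% of all genes, and entirely above in none, against 8.54%. None passed the test, even at an unadjusted p under 0.05, and every adjusted p was above 0.9, against 0.345% of all genes called higher and 0.0168% called lower. RPL13 (-0.23), RPL9 (-0.24), RPL35A (-0.28) and RPS19 (-0.26), proteins of both subunits, were among the genes without overlap, and they were picked after their values were seen. RPL35A lay at 585, 573 and 574 TPM with IFN-γ and at 411, 500.4 and 527 TPM with both agents, and RPL39, a protein of the exit tunnel, at 2595, 2558 and 2606 TPM and at 1725, 2334 and 2472 TPM. In both genes the lowest value came from replicate 1 of the group with both agents. Without that library the median was -0.07, with 66 genes below 0. Genes of a library move together, so these counts are not 78 separate observations.

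**Figure D5:**
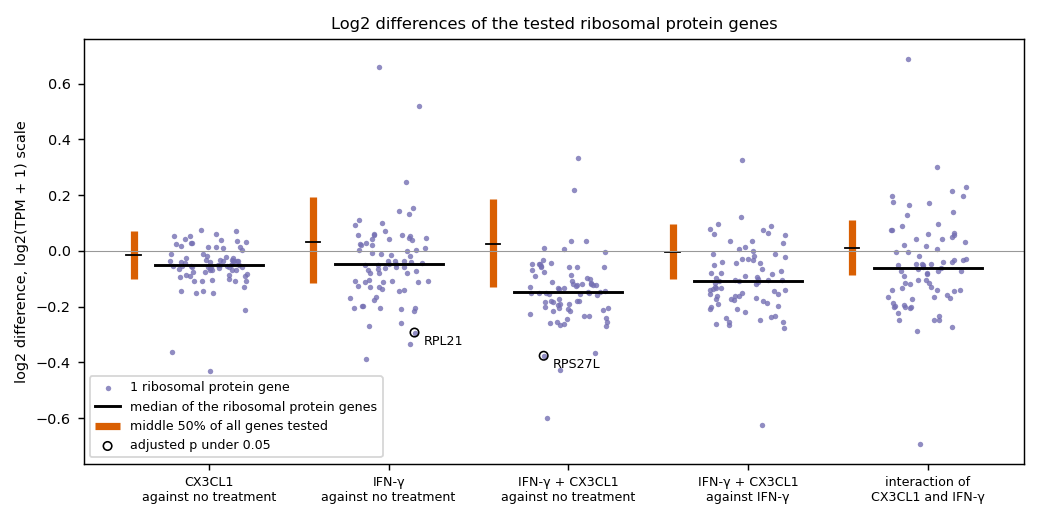
Log2 difference of each of the 78 tested ribosomal protein genes on the log2(TPM + 1) scale (points), with their median (long line), for the 4 comparisons and the interaction. The orange bar and its tick give the middle 50% and the median of all 11878 genes tested, and circled genes have an adjusted p under 0.05. The points sit lowest against the orange bar where IFN-γ + CX3CL1 is compared with no treatment.

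The interaction, which is the CX3CL1 difference in the presence of IFN-γ minus that in its absence, gave no call among the 78 genes, against 0.00% in either direction over all genes by limma. At an unadjusted p under 0.05 there were 0 of 78 ribosomal protein genes and 273 of all genes. The largest values were -0.69 ± 0.57 for RPL30, 0.69 ± 0.55 for RPS27, 0.30 ± 0.21 for RPS2, -0.29 ± 0.29 for RPL36, -0.27 ± 0.31 for RPS20 and 0.23 ± 0.22 for RPL19 (SE). When single libraries were left out, these values ran from -1.01 to -0.20 for RPL30 (nearest 0 without IFN-γ + CX3CL1 replicate 1) and from 0.21 to 1.15 for RPS27 (nearest 0 without untreated replicate 3). They ran from -0.54 to -0.069 for RPS20, -0.54 to -0.13 for RPL36, 0.15 to 0.40 for RPS2 and 0.072 to 0.37 for RPL19. The median was -0.06 and ran from -0.16 to 0.03 when single libraries were left out.

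With the 6 libraries that received IFN-γ set beside the 6 that did not, RPL21, RPS27L and RPL7 were the only 3 of 78 genes without overlap. All lay lower with IFN-γ, 3.85% of the ribosomal protein genes against 2.36% of all genes. None lay higher, against 7.20%. RPL21 had a lowest, median and highest value of 632, 659.8 and 694 TPM without IFN-γ and 532, 551 and 575 TPM with it. RPS27L had 508, 551 and 595 TPM without IFN-γ and 411, 448 and 491 TPM with it. RPL7, a large subunit protein, had 3569.6, 3979.8 and 4104 TPM without IFN-γ and 3097, 3348 and 3503 TPM with it. Relative to the level of each gene, the gap between the lowest value without and the highest with IFN-γ was small for RPS27L and RPL7 and wider for RPL21.

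The genes with known roles in inflammation gave no call. RPL13A, a GAIT complex member, was measured at 1416 ± 166 TPM without treatment, 1296 ± 152 TPM with CX3CL1, 1448 ± 56.1 TPM with IFN-γ and 1344 ± 33.7 TPM with both agents (SD, n = 3), with a log2 difference of 0.04 for IFN-γ (95% confidence interval -0.21 to 0.29), which ran from -0.062 to 0.096 over 18 alternatives. RPS3 was at 1027 ± 76.9, 978 ± 122, 948 ± 8.99 and 883 ± 51.7 TPM in the same order, with a log2 difference of -0.22 for both agents (-0.45 to 0.02). None of the 5 tested GAIT genes was called in any of the 4 comparisons. EPRS, whose protein carries the complex to its target, had log2 differences of 0.18 with IFN-γ and 0.28 with both agents, with adjusted p-values of 0.422 and 0.178.

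The proteins that bind MDM2 likewise gave no call. RPL5 was at 747, 749 and 871 TPM without treatment and 662, 668 and 629 TPM with IFN-γ, without overlap, a log2 difference of -0.27 with an adjusted p of 0.193. RPL11 had means of 661, 613, 599 and 572 TPM, RPL23 of 2054, 1911, 1765 and 1898 TPM, and RPS7 of 1569, 1603, 1507 and 1393 TPM, in the order no treatment, CX3CL1, IFN-γ and both agents. In the list of 10 genes around MDM2 and p53, CCNG1 was called lower with IFN-γ and with both agents, and RPS27L with both agents. Among all genes, 1.94% were called lower with IFN-γ and 3.72% with both agents. CCNG1, a p53 target, was at 303, 198 and 245 TPM without treatment, 137, 112 and 112 TPM with IFN-γ, and 138, 128 and 109 TPM with both agents. Its log2 differences were -1.02 ± 0.18 and -0.97 ± 0.18, with adjusted p-values of 0.00294 and 0.00278. The other p53 targets CDKN1A and PHLDA3 had log2 differences of -0.08 and 0.01 with IFN-γ and were not called, nor were MDM2 (0.26) and TRP53 (0.33).

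No gene of the stalk, which recruits translation factors, was called. RPLP0 had means of 2505, 2575, 2437 and 2173 TPM, RPLP1 of 6601, 6602, 7024 and 5908 TPM, and RPLP2 of 3205, 3323, 3448 and 3093 TPM in the order of groups given above. Among the CX3CL1 libraries, RPLP1 was at 7542, 4450 and 7816 TPM and RPLP2 at 3878, 2167 and 3926 TPM, so that 1 library held the low value of both. For both agents against IFN-γ, RPLP0 and RPLP1 lay entirely lower, as did 7.74% of all genes, and RPLP2 overlapped. RPLP1 was at 7138, 6963 and 6973 TPM with IFN-γ and at 5117, 6219 and 6387 TPM with both agents, with an adjusted p of 0.976 by limma. RPSA, which also serves as a laminin receptor, varied little, from 1899 to 2377 TPM. RPS6, the protein phosphorylated by S6 kinase, was the steadiest of all, from 893 to 1036 TPM, with an SD of 0.06 on the log2 scale over the 12 libraries. RPS27A, made as a fusion with ubiquitin, lay between 1472 and 1871 TPM.

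Paralogs of the core proteins were mostly far below their partners. RPL39 lay between 1723 and 3083 TPM and RPL39L, known from testis and from tumor cells, between 290 and 423 TPM. Both were read at their lowest in CX3CL1 replicate 2 and IFN-γ + CX3CL1 replicate 1. RPS4X lay between 2385 and 3655 TPM, while RPS4L was listed at 0. RPL22 was the lower partner, at 149 to 196 TPM, against 382 to 1005 TPM for RPL22L1, which the symbol rule leaves out. RPS27, whose low values were set apart above, was also read below RPS27L, at 3.04 to 13.8 TPM against 411 to 595 TPM. RPL22L1 lay at 594, 658 and 382 TPM in the 3 libraries with the shared profile and at 747 TPM or above in the other 9, whereas RPL22 lay at 196, 187 and 177 TPM in these 3 libraries and at 178 TPM or below in the other 9.

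Ribosomal proteins outside the symbol rule gave no call either. Of 7 tested genes none was called in any comparison. FAU, made as a fusion with a ubiquitin-like protein, lay between 665 and 985 TPM, and RACK1, a scaffold on the small subunit, between 1264 and 1949 TPM. Their median log2 difference was -0.15 for both agents against no treatment and -0.13 for both agents against IFN-γ.

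The genes around the ribosome gave a few calls. Of 23 other messages known for a TOP motif, 1 was called lower with both agents against no treatment and none in the other comparisons. This was VIM, an intermediate filament protein, with means of 4174 ± 599 TPM without treatment and 2359.6 ± 731 TPM with both agents. In that comparison 3.72% of all genes were called lower. EEF1A1, an elongation factor, had means of 11853 ± 983 TPM and 10357 ± 632 TPM. Of 40 ribosome biogenesis genes, SDAD1 and POLR1A were called higher with IFN-γ and again with both agents, and none was called lower. These 2 of 40 stand against 5.91% and 8.21% of all genes called higher. POLR1A, the largest subunit of RNA polymerase I, had means of 81.0 ± 2.64 TPM without treatment, 101.2 ± 0.866 TPM with IFN-γ and 103.7 ± 2.94 TPM with both agents, with adjusted p-values of 0.0169 and 0.00588. Of 22 tested genes that control TOP translation or ribosomal protein genes, MYC and SESN2 were called higher and EIF4EBP2 lower, with IFN-γ and with both agents. The shares over all genes were 5.91% higher and 1.94% lower with IFN-γ, and 8.21% and 3.72% with both agents. MYC, a transcription factor of ribosome genes, had means of 133 ± 17.4, 182 ± 14.8 and 187 ± 3.33 TPM without treatment, with IFN-γ and with both agents. In the main fit, no ribosomal protein gene was called higher in the groups in which POLR1A and MYC were. This depended on the processing, since with quantile normalization 1 was called higher with IFN-γ and 1 with both agents.

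Of the 78 mitochondrial ribosomal protein genes, all tested, 4 were called higher and 1 lower with IFN-γ, against 5.91% and 1.94% of all genes. With both agents 3 were called higher and 3 lower, against 8.21% and 3.72%. The counts with IFN-γ and with both agents were thus near or below those of all genes. With CX3CL1 1 of the 78 was called lower, against 0.168% of all genes, and none higher, against 1.78%. MRPS6, a small subunit protein, was lower in all of these comparisons, with means of 162 ± 18.8 TPM without treatment, 116 ± 2.94 TPM with CX3CL1, 124 ± 8.23 TPM with IFN-γ and 101 ± 9.72 TPM with both agents. MRPL27 was higher, at 80.2 ± 5.04 TPM without treatment, 113 ± 2.55 TPM with IFN-γ and 112 ± 6.42 TPM with both agents. The difference between the cytosolic and the mitochondrial genes was not tested. For the comparison of both agents with IFN-γ the median log2 difference was -0.10 for the mitochondrial and -0.11 for the cytosolic genes, and no gene of either kind was called.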

How the data were processed

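CT26 mRNA was measured in 12 libraries, 3 for each of 4 groups taken from the labels. The doses and the time come from the study's legend and methods. The authors aligned strand-specific reads to mm10 with STAR 2.7.3a and tested gene counts with DESeq2 1.22.1, per the labels and methods, and the deposited values are TPM, which sum to 1000000 in each library. How reads shared by several genes were counted is not given in the sources used here. The table held 0 further columns of per-sample values.

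From the TPM, log2(TPM + 1) was fitted over all 12 libraries with limma 3.58.1 in R 4.3.3 (lmFit, and eBayes with an intensity trend) for 11878 genes, those averaging 0.2 TPM or more. Benjamini-Hochberg adjustment ran over these genes separately for every comparison, and an adjusted p under 0.05 was called. Of the 82 ribosomal protein genes, 78 passed this filter. Log2 differences understate changes of low genes. The fit was tested on simulated data in which genes varied independently, so that test does not cover libraries whose genes move together. An exact permutation test of 3 against 3 cannot reach 0.05, so calls rest on limma's spread shared across genes, which may be technical.

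The members, gene lists, named genes (extremes of level, spread and difference, calls, and genes of known extra roles) and tests were chosen with earlier results of these data known. Genes marked as picked after their values were seen fall outside that rule, as do the groups of 3 and of 9 libraries.

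Deviations from the group means, over all tested genes, were correlated between same-numbered libraries for IFN-γ with IFN-γ + CX3CL1 (r from 0.63 to 0.65). The correlations were weaker for no treatment with IFN-γ (0.22 to 0.46). They were 0.23 to 0.58 for CX3CL1 with IFN-γ and 0.35 to 0.43 for CX3CL1 with IFN-γ + CX3CL1. They were uneven for no treatment with CX3CL1 (0.0047 to 0.39) and with IFN-γ + CX3CL1 (0.032 to 0.45). The pairing rests on these correlations, since no label says what a number shares.

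Transcripts, genes and GC content came from GENCODE vM21 on GRCm38 (1 transcript a gene), promoters from RefSeq on GRCm38.p6. GC content and length were found for 97.9% of the symbols and all 82 members. Tables were made with pandas 2.3.3. Some genes are counted in the totals and not reported here by name.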

Additional observations from a re-analysis of the deposited data

How the results depend on the processing

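No ribosomal protein gene was called for CX3CL1 against no treatment, for IFN-γ + CX3CL1 against IFN-γ or for the interaction under any alternative tried (another pseudocount, filter, scaling or normalization, no intensity trend, only the libraries compared, the replicate block, centring on GC content and length, single libraries left out, 9 libraries). For IFN-γ against no treatment the count of 1 became 2 with a mean of at least 1 TPM, with quantile normalization and with GC and length centring (RPL21 among them each time), 3 with the replicate block, with centring and block together and with only the libraries compared, and 0 with median-ratio scaling and with rescaling to genes other than ribosomal protein genes. Without single libraries it ran from 0 to 1, and the 1 was RPS21, called without untreated replicate 1. In the fit of 9 libraries it was 1, RPL37A. For IFN-γ + CX3CL1 against no treatment the count of 1 became 2 with no filter and with that rescaling, 3 with quantile normalization, with the block, with centring and with only the libraries compared, and 6 with centring and block together (RPS21, RPL21, RPS27L, RPL32L and RPL37A among them, all lower). Without single libraries it ran from 0 to 2, and it was 0 without untreated replicate 2 or 3 and without replicate 1 or 3 of IFN-γ + CX3CL1. For this comparison same-numbered libraries deviated together unevenly over all tested genes (r from 0.032 to 0.45). Over the ribosomal protein genes r was -0.13, 0.66 and -0.58 for replicates 1, 2 and 3. The block adds RPL21 (adjusted p = 0.0188) and RPL37A (0.0381) in this comparison. The block changed no other call.

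The medians without single libraries ran from -0.13 to 0.06 for CX3CL1, -0.09 to -0.02 for IFN-γ, -0.20 to -0.10 for both agents against no treatment, -0.14 to -0.07 for both agents against IFN-γ, and -0.16 to 0.03 for the interaction. For both agents against IFN-γ the median of -0.11 became -0.053 with GC and length centring, with or without the block. Summed TPM moved by more than the SD of their group under median-ratio scaling in IFN-γ replicates 1 and 2 (167310 and 177896) and in IFN-γ + CX3CL1 replicate 1 (155044).

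Some genes named for the size of their difference reversed direction. With CX3CL1 this was RPS27 (0.19 in the fit of 9 libraries). With both agents it was RPL30 (-0.0021 with a pseudocount of 0.1, -0.091 with quantile normalization). For both agents against IFN-γ it was RPL23 (-0.019 in the fit of 9), and in the interaction RPL19 (-0.056 in the fit of 9). The range given above for RPL13A with IFN-γ also held both signs. Without single libraries, log2 differences ran from -0.82 to 0.12 for RPS27, -0.25 to 0.39 for RPL30 and -0.020 to 0.20 for RPS15A with CX3CL1, from -0.28 to 0.53 for RPL30 and -0.24 to 0.70 for RPS27 with both agents against no treatment, and from -0.019 to 0.18 for RPL23 and -0.012 to 0.54 for RPS27 for both agents against IFN-γ. The cause of these changes was not tested. TPM carry no depth, so no counting error could be given.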
